A study of Homo sapiens with 8 samples.

Results

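The immediate early and AU-rich decay genes described here are 10 genes chosen by name from 27412 genes with a row in the deposited all-read table: JUN, JUNB, JUND, FOS, EGR1, IER2, IER5, ZFP36, ZFP36L1 and ZFP36L2. Each gene took the row with its highest mean. All 10 had a row, 9 had a mean of at least 1 CPM and 8 a mean of at least 5 CPM, with EGR1 below the lower limit and FOS between the limits. CPM is a gene's read count scaled to the total reads of its library.

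Immediate early genes are switched on within minutes of a stimulus, without new protein synthesis, largely through ERK signalling and serum response factor at CArG boxes in their promoters. Their mRNAs are short-lived, and many carry AU-rich elements, runs of the pentamer ATTTA in the 3′ UTR. Proteins of the ZFP36 family bind such elements and recruit the CCR4-NOT deadenylase, which starts the decay of the mRNA. In mouse B-cell precursors ZFP36L1 and ZFP36L2 are known to restrain the cell cycle while antigen receptor genes rearrange.

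RNA came from NALM6, a cell line grown from a human acute lymphoblastic leukaemia of B-cell precursors, engineered to express HMGN1, a nucleosome-binding protein, when doxycycline is added. The mutant group (2 libraries, A and B) carried HMGN1 S20,24E, which binds nucleosomes poorly, and received doxycycline at 100 ng/ml for 6 h. The induced wild type group (3 libraries, A to C) carried wild-type HMGN1 and received the same doxycycline. The vehicle group (3 libraries, A to C) was the wild-type HMGN1 line with vehicle for 6 h. All 8 cultures were given 100 µM 4-thiouridine for the last 5 h and were processed for SLAM-seq, in which label in new RNA is read as T-to-C conversions. No library of the mutant line without doxycycline was analysed here, so that in a comparison of mutant with vehicle the line and doxycycline cannot be told apart, and doxycycline was not separated from HMGN1 in any comparison. Replicates were labelled as biological, with no statement of separate days or clones, so that p-values measure the spread between these libraries.

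As a check of the labels, HMGN1 itself stood at 223 and 199.5 CPM in mutant A and B and at 252, 217 and 317 CPM in the induced wild type libraries A to C, against 191, 153 and 145 CPM with vehicle. Depth was 7.99 to 17.7 M reads. The converted share of read bases ran from 3.43% to 4.67% in mutant, from 3.40% to 5.22% in induced wild type and from 2.65% to 4.52% in vehicle libraries, with vehicle A the lowest of all 8 and induced wild type C the highest. Of 16 precursor B-cell markers 15 had a row and all 15 a mean of at least 5 CPM, with a summed level of 1794 to 1978 CPM in mutant, 1979 to 2157 CPM in induced wild type and 2136 to 2178 CPM in vehicle libraries, and the part of this order in the results was not tested. Of 15 markers of other blood cells CD3D, ELANE, HBB and PF4 were at 0 in every library, and only CSF1R reached a mean of 5 CPM. The summed level of the 15 markers was 347 to 433 CPM in mutant and 366 to 443 CPM in induced wild type libraries. With vehicle it was 424 to 518 CPM. Most of this sum was CSF1R, since every other marker had a mean under 5 CPM. A mean of 0.00841% of the counted bases of CSF1R were converted with vehicle. These are bulk samples, in which fewer cells of a type and less RNA per cell cannot be told apart.

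The AU-rich motifs of the 10 genes were counted in their 3′ UTRs. The pentamer ATTTA occurred 10 times in IER5, 8 times in ZFP36L1, 5 times in each of FOS, ZFP36 and ZFP36L2, 3 times in JUN, 2 times in JUNB, 1 time in JUND and in EGR1, and 0 times in IER2. The longer nonamer TTATTTATT, the form bound best by ZFP36 proteins, occurred 3 times in IER5 and 1 time in each of FOS, ZFP36, ZFP36L1 and ZFP36L2, and in none of the others. The windows of 26 bases that hold the nonamers of these 5 genes are shown with that of JUN, which has pentamers alone, because conversion rates are set against these motifs further on. Sequences are from GENCODE 29, 5′ to 3′, with U written as T, and capitals mark ATTTA.
IER5: tcttcctttATTTATTTATTTATTTA
FOS: tgtgtttttaATTTATTTAttaagat
ZFP36: ctttATTTAtgacgactttATTTAtt
ZFP36L1: ctgttggattATTTAttttagaaatt
ZFP36L2: tatgaaaactATTTAacttATTTAtt
JUN: cagaaaggatATTTAagaaaatacaa
The IER5 window holds 4 overlapping pentamers in a row, and those of FOS, ZFP36 and ZFP36L2 hold 2 each. In these windows ZFP36 and ZFP36L2 have their 2 pentamers apart, while those of FOS overlap.

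Levels were compared between genes per kilobase of transcript span, since pairs of transcripts with the same span and different exons had identical values in 198 of 199 cases, so that reads appear to have been counted over the whole span. Spans are those of GENCODE 29. With vehicle, JUND was the most abundant at 16.3 ± 1.75 CPM per kb of span (SD, n = 3), followed by JUNB at 8.26 ± 1.83, IER2 at 7.86 ± 1.54 and IER5 at 5.87 ± 1.02. A lower set held ZFP36L1 at 2.73 ± 1.12, ZFP36 at 2.65 ± 1.11, JUN at 2.27 ± 1.10 and ZFP36L2 at 1.56 ± 0.475 CPM per kb. FOS, at 0.536 ± 0.238, and EGR1, at 0.0869 ± 0.0498 CPM per kb, were lowest. Neighbours in this order overlapped within their SDs, except JUND over JUNB, IER5 over ZFP36L1, ZFP36L2 over FOS and FOS over EGR1. JUND was also the most abundant per kb of span in mutant libraries, at 11.97 ± 0.674, and in induced wild type libraries, at 14.5 ± 1.27. EGR1 was the least in both. This order depends on the scale, since spans take in introns. IER2 has a span of 4476 bases and a transcript length of 2085, while both are 1863 for JUND. In plain CPM IER2 was above JUND, with means of 35.2 against 30.3 with vehicle. The means were 32.1 against 22.3 in mutant and 36.7 against 27.0 in induced wild type libraries.

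Among the AP-1 subunits, JUN, the founding member of that transcription factor, had 7.72 and 4.91 CPM in mutant libraries A and B and 7.58, 5.64 and 10.4 CPM in induced wild type libraries A to C, against 3.60, 9.55 and 10.9 CPM with vehicle. The 3 groups overlapped, and vehicle A was the lowest library. JUNB, which can oppose JUN, had 15.1 and 13.9 CPM in mutant libraries and 14.9, 14.0 and 15.4 CPM in induced wild type libraries, against 11.7, 15.02 and 18.4 CPM with vehicle. Its groups overlapped too, with vehicle libraries at both ends. JUND, the JUN gene least tied to stimulation, had 21.4 and 23.2 CPM in mutant libraries and 29.1, 27.5 and 24.4 CPM in induced wild type libraries, against 27.0, 30.5 and 33.5 CPM with vehicle. Both mutant libraries lay below every library of the other groups. FOS, the partner of JUN proteins in AP-1, had 0.579 and 0.776 CPM in mutant libraries, which is 6 and 9 reads, and 1.46, 1.503 and 2.39 CPM in induced wild type libraries, against 0.900, 2.34 and 2.31 CPM with vehicle. Both mutant libraries again lay below all others, and vehicle A, with 8 reads, was the nearest of them. Of 12411 genes, 11.4% had both mutant libraries below every vehicle library and 13.2% below every induced wild type library. The share below both groups at once was not counted.

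EGR1, a zinc finger transcription factor, was close to the limit of detection, with 3 and 9 reads in mutant libraries and 8, 2 and 12 in induced wild type libraries, against 1, 5 and 8 with vehicle. IER2, a small nuclear protein gene, had 32.4 and 31.7 CPM in mutant libraries and 41.8, 30.4 and 37.8 CPM in induced wild type libraries, against 28.5, 34.8 and 42.3 CPM with vehicle. IER5, a regulator of heat shock factor and protein phosphatase activity, had 28.9 and 28.8 CPM in mutant libraries and 25.2, 22.2 and 26.2 CPM in induced wild type libraries, against 21.0, 23.4 and 29.3 CPM with vehicle. Both mutant libraries were above all induced wild type libraries for IER5 and within the vehicle range, while those of IER2 overlapped with both other groups.

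In the ZFP36 family, ZFP36 (tristetraprolin) had 7.91 and 5.95 CPM in mutant libraries and 7.51, 6.01 and 10.00 CPM in induced wild type libraries, against 3.60, 7.99 and 9.07 CPM with vehicle. ZFP36L1 had 13.5 and 6.29 CPM in mutant libraries and 14.5, 10.0 and 25.1 CPM in induced wild type libraries, against 7.99, 19.3 and 18.4 CPM with vehicle. ZFP36L2 had 5.50 and 3.36 CPM in mutant libraries and 4.87, 4.01 and 9.35 CPM in induced wild type libraries, against 4.27, 7.55 and 7.89 CPM with vehicle. All 3 groups overlapped for each of these genes, and libraries of a group differed widely: ZFP36L1 spanned 3.98-fold over the 8 libraries, against 1.39-fold for IER5.

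**Figure D1:**
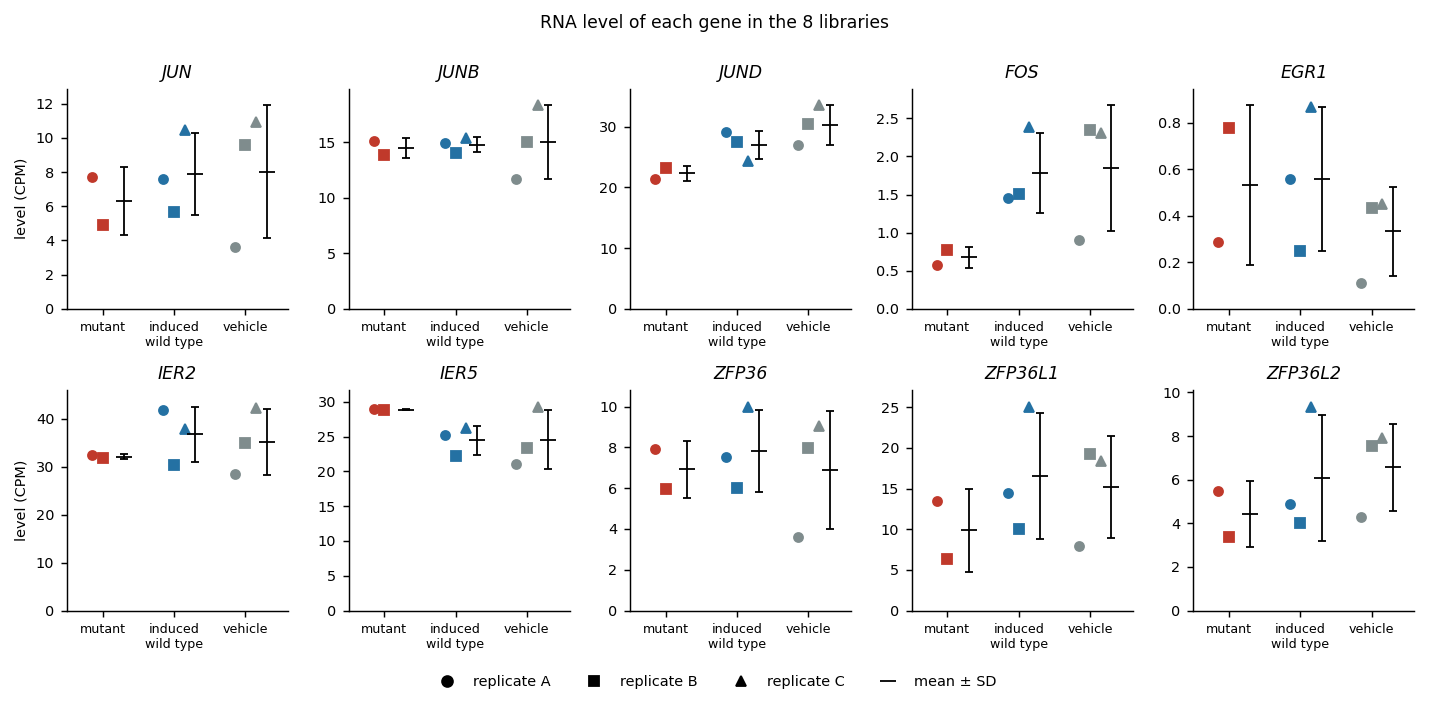
Level of each of the 10 genes in CPM (vertical axes from 0) in mutant, induced wild type and vehicle libraries; points are libraries, and the black marks are means ± SD. Both mutant libraries of JUND (21.4 and 23.2 CPM) and of FOS (0.579 and 0.776 CPM) lie below all others, while the groups of most other genes overlap. Of all genes, 11.4% had mutant libraries below every vehicle library and 13.2% below every induced wild type library, and the share below both was not counted.

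Much of the spread was shared between genes. Over the 8 genes with a mean of at least 5 CPM, vehicle A was the lowest library for 5 genes and mutant B for 2, and the highest was vehicle C for 5 and induced wild type C for 3. The mean standardised level of these 8 genes was -0.02 and -0.67 in mutant A and B and 0.26, -0.59 and 0.69 in the induced wild type libraries, against -1.26, 0.41 and 1.18 with vehicle. The libraries with the lowest values, mutant B, induced wild type B and vehicle A, also had the 3 lowest converted shares of read bases, at 3.43%, 3.40% and 2.65%. The part of this axis in the results was not tested. Pearson correlations of log2(CPM + 1) between pairs of the 8 genes ran from -0.26 for JUND with IER5 to 0.96 for JUN with ZFP36 over 8 libraries. All genes of a library share its depth and label incorporation, and both differed between libraries. JUN (0.98), JUNB (0.93) and ZFP36 (0.93) followed the mean profile closely, and JUND (0.42) and IER5 (0.53) least. Each of the 8 genes is part of that mean, which raises its own correlation. Their values cannot be set beside those of genes outside the mean. Among 8647 other genes the profile was most like that of RUSC2 (0.99), ERLIN2 (0.98), MAPK13 (0.98), DNAJC9 (0.97) and SLC39A1 (0.97).

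The 8 genes with a mean of at least 5 CPM were among the more highly converted genes of these cells. The conversion rate of a gene is the share of counted bases in its reads that were read as converted, and rows with a single read had rates between 0 and 1 whose smallest denominators reached 35 to 44 by library, so that bases within reads and not whole reads are counted. An mRNA that is replaced quickly carries label in more of its copies after the pulse. Since reads appear to have been counted over whole spans, rates of genes with introns may take in unspliced RNA as well, and its part was not tested. With vehicle, IER5 had a mean rate of 10.5% ± 1.73, JUN 10.5% ± 1.74, JUNB 10.4% ± 1.21, ZFP36 10.0% ± 1.06 and IER2 9.58% ± 0.999 (SD, n = 3). ZFP36L2 had 9.05% ± 1.47, JUND 8.46% ± 1.10 and ZFP36L1 8.08% ± 1.59. The median of 8655 genes with a mean of at least 5 CPM was 4.94%, 5.86% and 6.75% in vehicle A, B and C. Among those genes the vehicle means put IER5 at percentile 98.4, JUN at 98.3, JUNB at 97.95, ZFP36 at 96.7, IER2 at 95, ZFP36L2 at 91.4, JUND at 86.3 and ZFP36L1 at 82.2, a median of 95.8 for the 8 genes. Their order among neighbours is within the spread of the libraries. FOS, with 8 to 41 reads in vehicle libraries, had 10.2% ± 0.779, and EGR1 had rates of 0%, 6.98% and 6.0% from 1, 5 and 8 reads.

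All 8 genes were above the library median in every library. The lowest percentile any of them had was 62.2, for ZFP36L1 in mutant B. IER5, JUNB and IER2 were the steadiest, at percentiles of at least 92.9, 89.8 and 90.2 in all 8 libraries. Mutant B had the lowest rate for 6 of the 8 genes, and its median over all genes, 5.44%, was also low.

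By library, the rate of JUNB was 10.4% and 9.14% in mutant libraries and 10.4%, 8.60% and 11.5% in induced wild type libraries, against 9.08%, 10.5% and 11.5% with vehicle. Divided by the library median it was 1.53 and 1.68 in mutant libraries and 1.55, 1.59 and 1.57 in induced wild type libraries, against 1.84, 1.80 and 1.70 with vehicle. The raw rates of the 3 groups overlapped, and on the scale of the library median every vehicle library was above all libraries of the other groups. The rate of JUND was 8.53% and 7.18% in mutant libraries and 8.57%, 8.56% and 9.02% in induced wild type libraries, against 7.20%, 9.04% and 9.14% with vehicle. Both mutant libraries were below all induced wild type libraries, and vehicle A, at 7.20%, was between the 2 mutant libraries. How many of all genes had these orders of JUNB and JUND was not counted on these scales. FOS, on its few reads, had 1.41% and 10.5% in mutant libraries and 9.49%, 15.3% and 10.7% in induced wild type libraries, against 9.68%, 9.86% and 11.1% with vehicle, so that mutant A alone was low.

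The rate of IER2 was 9.97% and 8.40% in mutant libraries and 10.8%, 8.99% and 10.7% in induced wild type libraries, against 8.43%, 10.3% and 10.1% with vehicle. That of IER5 was 10.8% and 10.5% in mutant libraries and 11.5%, 9.69% and 11.5% in induced wild type libraries, against 8.62%, 12.0% and 10.8% with vehicle. Groups overlapped for both genes. In the ZFP36 family, ZFP36 had 10.4% and 7.96% in mutant libraries, ZFP36L1 8.92% and 6.23% and ZFP36L2 8.41% and 6.85%. ZFP36L1 had 8.53%, 6.88% and 10.6% in induced wild type libraries, against 6.26%, 9.22% and 8.77% with vehicle, and ZFP36L2 had 7.74%, 7.79% and 11.1% in induced wild type libraries, against 7.92%, 10.7% and 8.52% with vehicle. Mutant B was lower than mutant A for all 3 genes, and the groups overlapped.

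**Figure D2:**
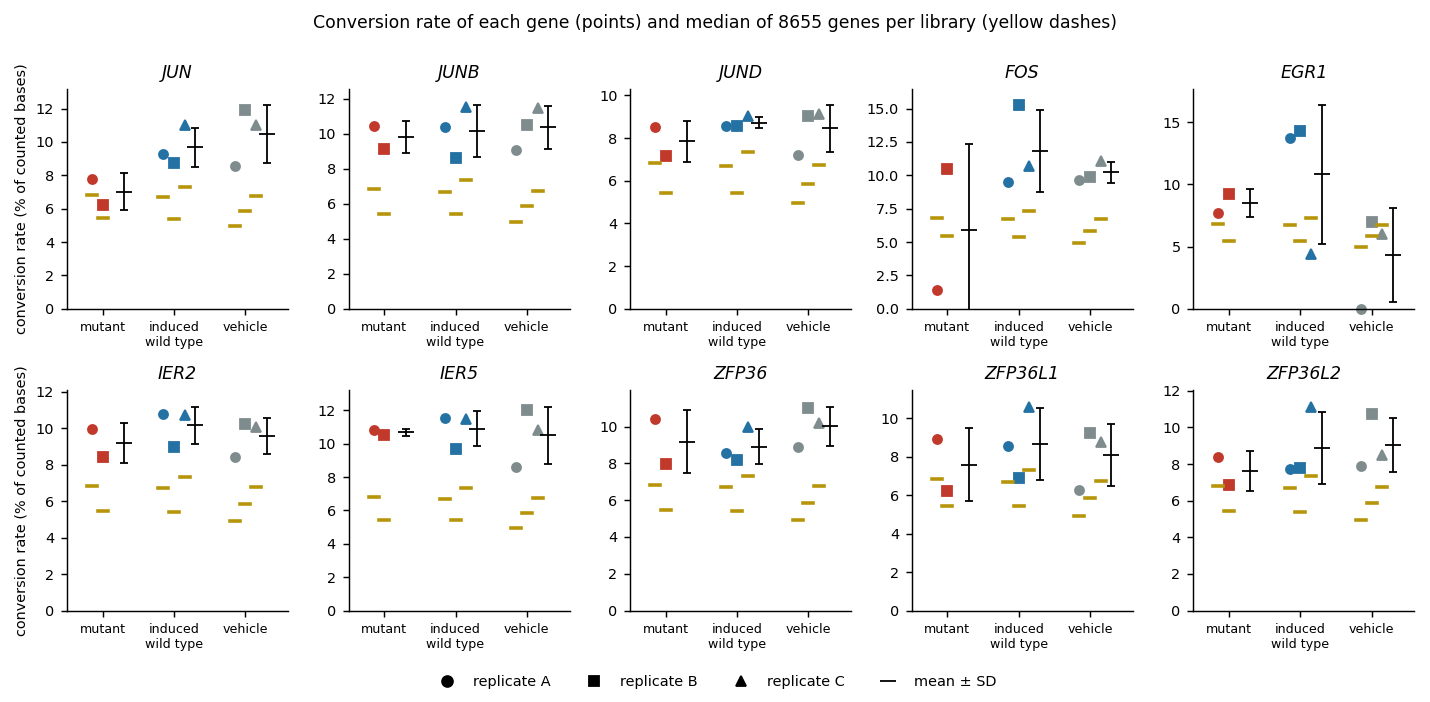
Conversion rate of each gene as a percentage of counted bases (vertical axes from 0) in mutant, induced wild type and vehicle libraries, with means ± SD in black and the median of 8655 genes in the same library as a yellow dash. JUN lies just above that median in mutant A and B (7.80% and 6.25%) and well above it elsewhere; FOS and EGR1 rest on few reads.

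Set beside other gene lists, the rates of the 8 genes were at the upper end. In 12 targets of AU-rich elements with a mean of at least 5 CPM the median vehicle percentile was 85.5, led by CDKN1A, a cell-cycle inhibitor, at 11.2% ± 1.38 (SD, n = 3). PLK3, a stress-responsive kinase, had 9.92% ± 1.22, NFKBIA, the inhibitor of NF-kappaB, 9.78% ± 0.528 and the kinase gene PIM3 9.72% ± 1.16. In 13 other immediate early genes it was 82.0, led by PPP1R15A, a phosphatase subunit of the stress response, at 10.4% ± 2.10 and the ERK feedback inhibitor SPRY2 at 9.70% ± 1.16. DUSP1, an ERK and p38 phosphatase, had 8.86% ± 0.837 and the orphan receptor gene NR4A1 8.73% ± 0.412. In 8 heat and handling stress genes the median percentile was 85.0, led by DDIT3 (11.3% ± 1.67), DNAJB1 (10.1% ± 1.80), DDIT4 (9.53% ± 0.566) and TXNIP (8.65% ± 1.46).

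The mRNAs of decay factors, of AU-rich element binding proteins and of the ERK and SRF pathway had rates nearer the middle of all genes. Genes of the CCR4-NOT complex, decapping and the exosome had a median percentile of 61.5 (35 genes), with TOB2 (9.27% ± 0.866), EXOSC4 (9.16% ± 1.07), DCP1B (8.98% ± 0.547) and CNOT3 (8.96% ± 2.09) highest. AU-rich element binding proteins stood at 53.9 (16 genes), and among them RC3H2 had 8.27% ± 1.48, RC3H1 7.91% ± 0.630 and CELF1 7.13% ± 0.817. ERK and SRF pathway genes stood at 53.1 (21 genes), with the SRF cofactor MKL1 at 9.07% ± 0.539, ELK1 at 8.88% ± 0.857, MAP2K7 at 8.44% ± 0.570 and SRF at 8.08% ± 2.22. Precursor B-cell markers had a median percentile of 29.7, with 8 of the 15 genes below the middle of all genes. Among those above it were CD79B (8.62% ± 0.810), PAX5 (8.53% ± 1.42), RAG2 (7.38% ± 0.760) and EBF1 (6.52% ± 0.552). Long-lived housekeeping mRNAs stood at 6.47 (25 genes). Their vehicle means ran from 0.719% to 9.59%, with 24 of the 25 below the middle of all genes and 1 in the top 10%. Among these mRNAs the tubulin gene TUBB had 3.67% ± 1.02 and the actin gene ACTB 3.54% ± 1.11.

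**Figure D3:**
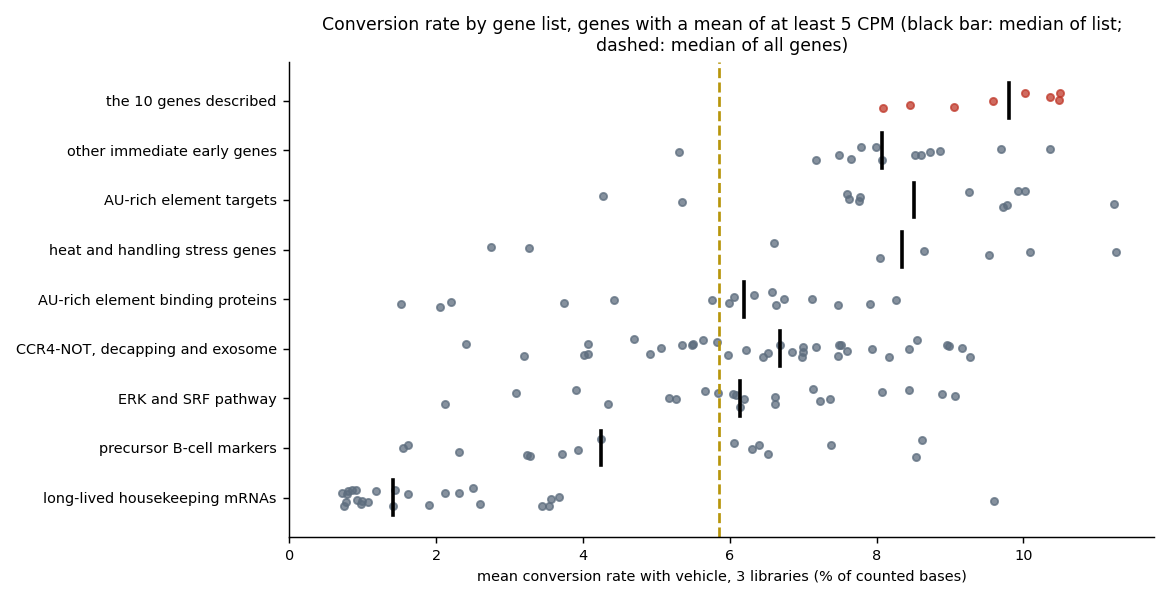
Mean conversion rate with vehicle over 3 libraries (horizontal axis, percentage of counted bases) for genes with a mean of at least 5 CPM in each list; points are genes, black bars list medians and the dashed line the median of all genes. The 8 genes described here lie between 8.08% and 10.5%, to the right of the dashed line.

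Across all other genes, the rate was higher where the 3′ UTR held a nonamer. With vehicle the median rate was 6.82% ± 0.890 (SD over 3 libraries) for 115 genes with 2 or more nonamers and 6.43% ± 0.854 for 388 genes with 1, against 5.90% ± 0.907 for 7370 genes with none. The order was the same in each of the 8 libraries. Median 3′ UTR lengths of these classes were 3539, 2495 and 812 bases. Among genes with a 3′ UTR of 500 to 2000 bases the median rate was 6.54% ± 0.756 (145 genes with a nonamer) against 6.22% ± 0.920 (3030 genes without). Gene structure moved with the rate as well: the vehicle median was 7.37% ± 0.948 for 159 genes with 1 exon, 6.03% ± 0.934 for 1387 genes with 2 to 4 exons and 5.83% ± 0.905 for 6797 genes with 5 or more. The 10 genes have 1 to 4 exons, and JUN, JUNB, JUND and IER5 have 1. Among genes of up to 4 exons the median was 7.55% ± 0.936 with a nonamer (77 genes) and 6.56% ± 0.938 without (1219 genes). These 2 classes also differed in median 3′ UTR length, at 3228 against 756 bases. How much of the rate of the 10 genes goes with motifs, with 3′ UTR length and with exon number was not tested. Among the 10 themselves IER5, with the most pentamers and nonamers, had 10.5%. ZFP36, ZFP36L2 and ZFP36L1, with 1 nonamer each, had 10.0%, 9.05% and 8.08%, and JUN, JUNB, IER2 and JUND, with none, had 10.5%, 10.4%, 9.58% and 8.46%.

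**Figure D4:**
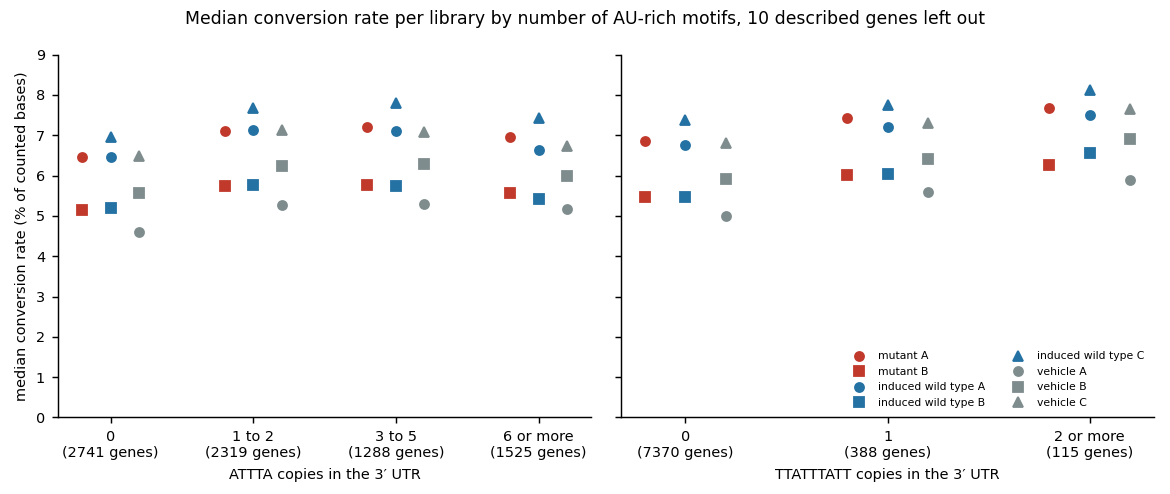
Median conversion rate per library (vertical axis from 0, percentage of counted bases) for genes grouped by copies of ATTTA (left) and TTATTTATT (right) in the 3′ UTR, the 10 described genes left out; colours are groups and shapes replicate letters. From 0 to 2 or more nonamers the vehicle medians are 5.90%, 6.43% and 6.82%, and with pentamers they are highest at 1 to 5 copies.

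The question of the design is whether induced HMGN1 changes RNA output and whether this needs nucleosome binding. For the 10 genes, mutant was first set against vehicle. None of the 9 genes tested in all reads passed (limma on log2(CPM + 1), Benjamini-Hochberg adjusted p below 0.05 over 12411 genes, of which 0.0322% were called). FOS had a log2 fold change of -0.72 (SE 0.29) and JUND of -0.42 (SE 0.17), each with an adjusted p of 1.00, and they were the 2 genes at an unadjusted p under 0.05 (0.0319 and 0.0351), as were 3.75% of all genes. Both mutant libraries were below all 3 vehicle libraries for these 2 of 9 genes, against 11.4% of all genes, and above them for 0 of 9, against 4.57%. The other values ran from -0.57 (SE 0.46) for ZFP36L1 to 0.24 (SE 0.19) for IER5, and 7 of 9 were below 0 with a median of -0.22, beside -0.04 over all genes. On the reads recovered from the CPM values, edgeR and DESeq2 called 0 of 9 genes as well, with FOS alone at an unadjusted p under 0.05 (edgeR log2 fold change -1.39, adjusted p = 0.420; DESeq2 -1.39, adjusted p = 0.474), and over all alternatives the smallest adjusted p of FOS was 0.390. Leaving out vehicle A moved the median of the 9 genes to -0.50, and leaving out mutant B moved it to -0.07. JUN, at -0.22 (SE 0.42), had -0.64 without vehicle A and 0.06 without mutant B.

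Conversion rates gave the clearest single value. JUN had a rate of 7.80% and 6.25% in mutant A and B, from 80 and 57 reads, against 8.54%, 11.9% and 11.01% with vehicle, from 32, 110 and 194 reads. Relative to the median of its library JUN stood at 1.14 and 1.15 in mutant libraries, against 1.73, 2.03 and 1.63 with vehicle, with no overlap. Its log2 fold change was -0.61 (SE 0.11), with an unadjusted p of 3.88e-04 and a limma adjusted p of 0.279 over 8655 genes, so that it did not pass. Over the alternatives the log2 fold change of JUN lay between -0.67 and -0.52 and the adjusted p between 0.251 and 1.00. None of the 8 genes passed, 0% of all genes were called, and 1 of the 8 was at an unadjusted p under 0.05, as were 8.32% of all genes. All 8 values were below 0, with a median of -0.16, beside -0.01 over all genes, and the smallest in size was that of IER5 at -0.03 (SE 0.13). Both mutant libraries were below all vehicle libraries for JUN, JUNB, JUND and ZFP36L2 on the centred log scale, which is 4 of 8 genes, against 13% of all genes, and above them for 0 of 8, against 10.6%. In raw rates only JUN of the 8 was free of overlap. The share of all genes free of overlap was not counted for raw rates or plain ratios to the library median. Without centring on the library median the median of the 8 genes was -0.09 and 7 of 8 were below 0.

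New RNA is the product of level and conversion rate. None of the 8 genes tested passed, beside 0.0416% of 9617 genes. An unadjusted p under 0.05 was seen for 3 of them, against 7.41% of all genes. These were JUN at -0.76 (SE 0.28, limma adjusted p = 0.508, and 0.191 to 1.00 over the alternatives), JUND at -0.58 (SE 0.26) and ZFP36L2 at -0.70 (SE 0.28). The median of the 8 genes was -0.40, beside -0.05 over all genes, and only IER5 was above 0, at 0.22 (SE 0.21). On the centred log scale mutant libraries were below all vehicle libraries for JUNB, JUND, IER2 and ZFP36L2, which is 4 of 8 genes, against 12.9% of all genes, and above them for 0 of 8, against 11%. Before centring the mutant libraries were below all vehicle libraries for JUND alone, and the share of all genes was not counted there.

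Mutant against induced wild type compares the lines with doxycycline in both. In all reads 0 of 9 genes passed, against 0.0322% of all genes, and FOS was the only gene of the 9 at an unadjusted p under 0.05 in limma, a level reached by 2.75% of all genes (log2 fold change -0.72, SE 0.29, adjusted p = 1.00). EdgeR and DESeq2 also called 0 of 9 genes, with FOS (-1.19 by both tools) and IER5 (0.40 by edgeR and 0.41 by DESeq2) reaching an unadjusted p under 0.05. Mutant libraries were below all induced wild type libraries for JUND and FOS, 2 of 9 genes against 13.2% of all genes, and above them for IER5, 1 of 9 genes against 1.8% of all genes. The median was -0.26, beside -0.12 over all genes, and it was -0.05 without mutant B and -0.07 without induced wild type C. In conversion rates 0 of 8 genes passed, against 0% of all genes, and 1 was at an unadjusted p under 0.05, against 5.21%. That gene was JUN, at 7.80% and 6.25% in mutant libraries, against 9.28%, 8.76% and 11.01% in induced wild type libraries (log2 fold change -0.37, SE 0.11, unadjusted p = 0.00976, limma adjusted p = 0.848). On the centred log scale JUN was also the only gene of the 8 with mutant libraries all lower, against 11.5% of all genes, and none of the 8 was all higher, against 9.88%. In raw rates JUND had both mutant libraries lower as well, and the share of all genes was not counted on that scale. In new RNA 0 of 8 genes passed and 0 were at an unadjusted p under 0.05, beside 0% of all genes called and 2.95% under that level. On the centred log scale IER5 had 0.41 (SE 0.21), with both mutant libraries above those of induced wild type (1 of 8 genes against 7.27%), and JUN -0.46 (SE 0.28), with both below (1 of 8 genes against 8.93%). Before centring both were above for IER5 and below for JUND, and JUN overlapped. Shares of all genes were not counted before centring.

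Induced wild type was set against vehicle within the wild-type line. In all reads 0 of 9 genes passed, against 0% of 12411 genes, and 0 were at an unadjusted p under 0.05 by limma (0.927% of all genes), edgeR or DESeq2. Every gene's groups overlapped, where 2.53% of all genes were higher and 1.49% lower in every induced wild type library. The values ran from -0.16 (SE 0.16) for JUND to 0.22 (SE 0.32) for ZFP36, with a median of 0.01, beside 0.09 over all genes. Leaving out vehicle A moved all 9 below 0, with a median of -0.24. In conversion rates 0 of 8 genes passed, against 0% of all genes, and ZFP36 (-0.30, SE 0.10, unadjusted p = 0.0175) and JUN (-0.24, SE 0.10, unadjusted p = 0.0417) were the 2 of them under an unadjusted p of 0.05 (4.71% of all genes), each with a limma adjusted p of 0.950. The rate of ZFP36 was 8.58%, 8.18% and 9.97% in induced wild type libraries, against 8.89%, 10.998% and 10.2% with vehicle. These rates overlapped before centring, and relative to the library median ZFP36 stood at 1.28, 1.51 and 1.36 in induced wild type libraries, against 1.80, 1.88 and 1.51 with vehicle. On the centred log scale with its pseudocount, induced wild type libraries were below all vehicle libraries for JUN, JUNB and ZFP36, 3 of 8 genes against 4.69% of all genes, and above for 0 of 8, against 4.68%. As plain ratios to the library median JUN and JUNB kept this order, and the share of all genes was not counted there. ZFP36 did not keep it, since induced wild type B, at 1.511, was above vehicle C, at 1.508. In raw rates the groups overlapped for all 3 genes. All 8 values were below 0 with a median of -0.13, but without centring only 4 of 8 were, with a median of 0.01. In new RNA 0 of 8 genes passed, against 0.0208% of 9617 genes, and none reached an unadjusted p under 0.05 (3.12% of all genes did), with a median of -0.24 that became 0.02 without centring. On the centred log scale JUNB was the only gene of the 8 with every induced wild type library lower, against 3.64% of all genes, and none was all higher, against 4.36%. Before centring JUNB overlapped too. The 3 comparisons share libraries in pairs, so that their values are not independent of each other.

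**Figure D5:**
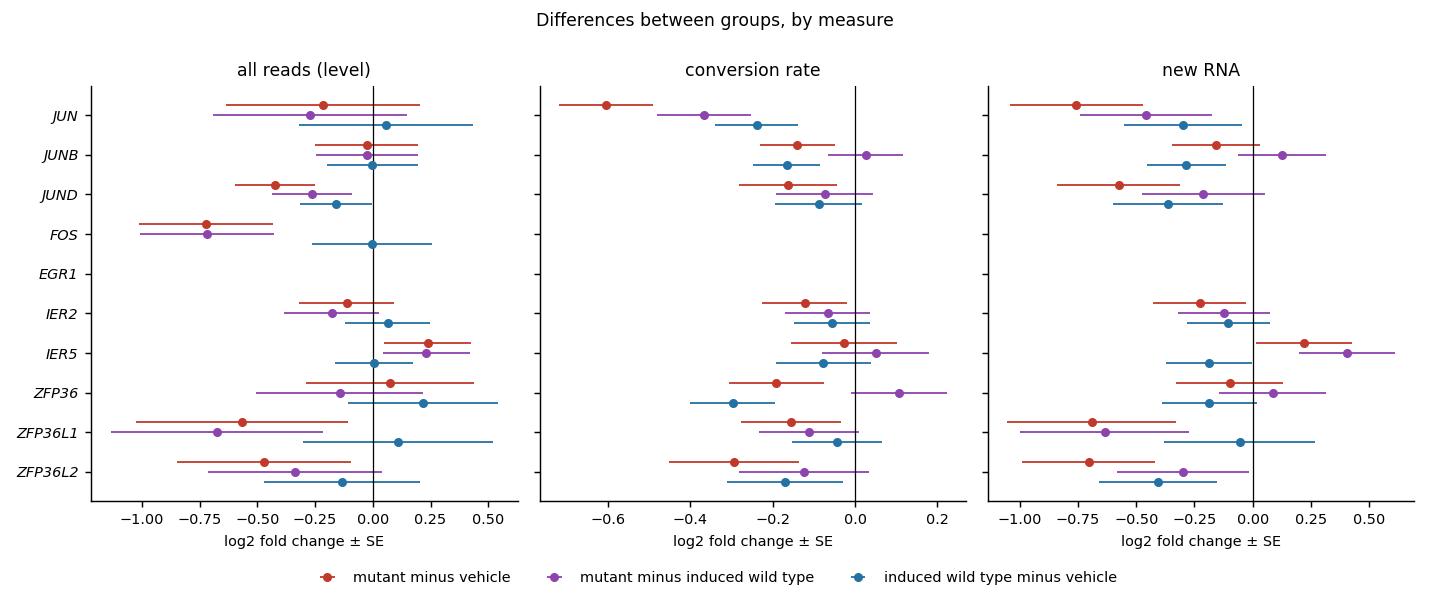
Log2 fold changes ± SE from limma for mutant minus vehicle (red), mutant minus induced wild type (purple) and induced wild type minus vehicle (blue), in all reads (left), conversion rate (centre) and new RNA (right). EGR1, and FOS beyond all reads, were below the filters; JUN has the lowest conversion value, -0.61 (SE 0.11), and no gene passed the adjusted threshold.

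Converted reads were also deposited as a table of their own, in which most of these genes have no usable value. JUN, JUNB, JUND and IER5, the genes with 1 exon, were listed at 0 in all 8 libraries, and FOS, EGR1, ZFP36 and ZFP36L2 had no row. Among all converted-read rows, 98 of 105 for transcripts with 1 exon were at 0, against 137 of 9715 with more exons. IER2 had 0.87 and 0.99 FPKM in mutant libraries and 1.79, 1.95 and 1.25 FPKM in induced wild type libraries, against 0.53, 1.59 and 1.91 FPKM with vehicle. Both mutant libraries lay below those of induced wild type, as for 11.8% of all genes (5.18% lay above), and within the range of vehicle, where 20.4% of genes had mutant libraries all higher and 7.81% all lower. Induced wild type and vehicle libraries overlapped for IER2, against 10.7% of genes all higher and 1.25% all lower. Its log2 fold change on the log2(FPKM + 1) scale was -0.23 (SE 0.45) for mutant against vehicle, -0.46 (SE 0.45) for mutant against induced wild type and 0.23 (SE 0.40) for induced wild type against vehicle, with limma adjusted p from 0.903 to 1.00. None of the 3 was under an unadjusted p of 0.05, as were 11.8%, 2.95% and 7.93% of all genes, and 0.401%, 0% and 0% of all genes passed. ZFP36L1 was listed at 0.59 and 0 FPKM in mutant libraries and 0.44, 0.48 and 1.24 FPKM in induced wild type libraries, against 0, 0.94 and 0.34 FPKM with vehicle, below the filter of a mean of 1.

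In all reads, 0 genes passed in either direction in any comparison among 23 tested of 41 other immediate early genes, 15 of 25 AU-rich element targets, 17 of 17 AU-rich element binding proteins, 38 of 39 genes of CCR4-NOT, decapping and the exosome, and 25 of 25 genes of the ERK and SRF pathway. At an unadjusted p under 0.05 for mutant against vehicle there were 0, 1, 0, 1 and 0 in that order, beside 3.75% of all genes. Their medians for mutant against vehicle were -0.10, 0.13, -0.06, 0.02 and 0.06, beside -0.04 over all genes, and 9 of 23, 10 of 15, 6 of 17, 20 of 38 and 14 of 25 values were above 0. VEGFA, a growth factor gene and target of AU-rich decay, averaged 5.04 CPM in mutant and 12.4 CPM in induced wild type libraries, against 10.0 CPM with vehicle (mutant against induced wild type -1.12, unadjusted p = 0.00363). Its conversion rate was 8.67% ± 0.532 in mutant (SD, n = 2) and 4.64% ± 1.02 in induced wild type libraries, against 4.28% ± 0.457 with vehicle (SD, n = 3 each). The log2 fold change of that rate was 0.93 (SE 0.17, unadjusted p from limma 3.95e-04, adjusted p = 0.489) for mutant against induced wild type and 0.88 (SE 0.17, adjusted p = 0.282) for mutant against vehicle, and that of new RNA -0.10 and -0.02. NOTCH1, a receptor gene, averaged 7.79 CPM in mutant and 6.83 CPM in induced wild type libraries, against 4.70 CPM with vehicle (mutant against vehicle 0.62, unadjusted p = 0.0678), and PLK3 9.45 CPM in mutant and 10.02 CPM in induced wild type libraries, against 7.53 CPM with vehicle. TNFAIP3, the ubiquitin-editing inhibitor of NF-kappaB, averaged 7.004 CPM in mutant and 12.4 CPM in induced wild type libraries, against 12.2 CPM with vehicle. PAN2, a deadenylase subunit, averaged 12.4 CPM in mutant and 22.2 CPM in induced wild type libraries, against 20.4 CPM with vehicle (mutant against induced wild type -0.77, unadjusted p = 0.0139). Among other immediate early genes, PPP1R15A averaged 34.4 CPM in mutant and 45.5 CPM in induced wild type libraries, against 43.6 CPM with vehicle. CSRNP1, a nuclear protein gene, averaged 4.39 CPM in mutant and 6.38 CPM in induced wild type libraries, against 3.97 CPM with vehicle, and the growth arrest gene GADD45B 3.13 CPM in mutant and 2.02 CPM in induced wild type libraries, against 2.43 CPM with vehicle (mutant against induced wild type 0.45, unadjusted p = 0.128). The ERK phosphatase DUSP6 averaged 2.96 CPM in mutant and 5.02 CPM in induced wild type libraries, against 5.20 CPM with vehicle, and MAPK3, which encodes ERK1, 10.1 CPM in mutant and 13.4 CPM in induced wild type libraries, against 14.4 CPM with vehicle. The SRF cofactor MKL1 averaged 14.4 CPM in mutant and 12.9 CPM in induced wild type libraries, against 9.48 CPM with vehicle. MAPKAPK2, the kinase that acts on ZFP36, averaged 79.9 CPM in mutant and 84.0 CPM in induced wild type libraries, against 95.7 CPM with vehicle. Heat and handling stress genes, which can rise with sample handling, had 9 of 12 tested and 0 that passed, with a median of 0.15 for mutant against vehicle. Their summed level was 1923 to 1936 CPM in mutant and 1462 to 1889 CPM in induced wild type libraries, against 1583 to 1974 CPM with vehicle, and their part in the results was not tested.

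Promoter sequences were available for 9 of the 10 genes, as windows from 250 bases before to 50 after the transcription start (RefSeq, GRCh38.p14). Within these windows a CArG box, the serum response factor site, was found in EGR1 alone, 2 times, against 1.29% of 35116 promoters. Sites further from the start were not searched for, so that a gene without a match here may have one elsewhere. The cAMP response element TGACGTCA was found in JUND and ZFP36L1 (1.85% of promoters) and its variant TGACATCA, known from the JUN promoter, in JUN (2.61%). For ZFP36L1 the element lay in the window at chr14:68793367-68793666, while that at chr14:68796194-68796493 had none. A gene was counted where any of its windows held the motif. The AP-1 site TGANTCA was found in none (7.71%). GCGNGGGCG, bound by EGR proteins, occurred in EGR1 and ZFP36L1 (9.43%), the ETS core CCGGAA in IER2 and IER5 (17.2%) and TATAAA in FOS and JUNB (11.5%). Both strands were searched, none of the motifs lies within another, and a match is a description of the letters only. In both mutant libraries the conversion rate of JUN and the level of JUND were lower than in all others. The share of all genes with such an order was not counted. Shown are the 250 bases before the start of EGR1 and of these 2 genes, in the order EGR1, JUN and JUND. They lie at chr5:138465229-138465478 (plus strand), chr1:58784048-58784297 (minus strand) and chr19:18281623-18281872 (minus strand), and capitals mark the CArG boxes, TGACATCA and TGACGTCA.
EGR1: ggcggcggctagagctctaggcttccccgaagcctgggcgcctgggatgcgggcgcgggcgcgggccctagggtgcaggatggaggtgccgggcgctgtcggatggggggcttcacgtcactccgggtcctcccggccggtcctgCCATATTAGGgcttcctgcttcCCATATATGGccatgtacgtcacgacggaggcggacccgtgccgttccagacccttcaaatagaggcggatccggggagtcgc
JUN: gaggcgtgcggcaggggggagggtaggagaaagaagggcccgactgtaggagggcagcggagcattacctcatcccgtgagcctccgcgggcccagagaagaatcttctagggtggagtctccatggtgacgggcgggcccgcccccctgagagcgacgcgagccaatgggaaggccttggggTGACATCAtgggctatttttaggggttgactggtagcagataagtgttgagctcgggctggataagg
JUND: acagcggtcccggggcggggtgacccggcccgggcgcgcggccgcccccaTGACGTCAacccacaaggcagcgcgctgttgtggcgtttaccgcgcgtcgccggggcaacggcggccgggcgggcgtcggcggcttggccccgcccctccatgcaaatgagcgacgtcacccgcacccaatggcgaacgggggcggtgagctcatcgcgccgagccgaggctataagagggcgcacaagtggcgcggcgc
The CArG boxes of EGR1 begin 105 and 83 bases before the start, TGACATCA of JUN 67 bases and TGACGTCA of JUND 200 bases before it. EGR1, the only gene searched with CArG boxes in its window, was the least abundant of the 10 genes in these cells.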

How the data were processed

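SLAM-seq was done in 8 libraries, sequenced on a NextSeq 500 after stranded mRNA preparation, per the labels' protocols, with hg19 (GRCh37) as build per the submitters' processing notes. Aligner, conversion caller, strand setting and counted region were not given in the sources. Per transcript, the deposited CPM columns hold a signal, and every value was a whole number of reads within 0.1 (100% of values), so that reads were recovered. The deposited conversion columns are a fraction per transcript, printed here as percent. Converted reads were deposited as FPKM, whose ratio to CPM did not fall with transcript length.

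Of 61177 rows, 60263 matched the RefSeq gene table (GRCh38.p14, used for names). A gene took its row with the highest mean, rows named in the file first. Overlapping and antisense genes cannot be told apart.

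All genes were fitted with limma 3.58.1 (R 4.3.3), all 8 libraries together and no covariate: log2(CPM + 1) with a mean of at least 1 CPM, log2(percent + 0.5) with a mean of at least 5 CPM, new RNA as log2(CPM times conversion fraction + 0.1) with a mean of at least 0.2, and log2(FPKM + 1) with a mean of at least 1. Conversion and new RNA were centred on each library's median. Fold changes of low genes are understated. Adjusted p-values are Benjamini-Hochberg over every gene fitted, with a threshold of 0.05, and fits were tested on simulated data. EdgeR 4.0.16 and DESeq2 1.42.0 on recovered reads, other filters, pseudocounts and scalings, and leaving out each library were alternatives. Tables and figures used pandas 2.3.3, numpy 2.4.6 and matplotlib 3.10.9 under Python 3.11.15. GENCODE 29 gave exons, spans and 3′ UTRs, joined through transcript accessions. Spans and levels per kb rest on its own coordinates, which are not those of hg19. FOS and EGR1 rest on few reads, and read numbers cover counting error only. The number of bases behind a conversion rate is unknown, so that it has no interval.

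The genes and lists were chosen with earlier results of these data known. Named besides the 10 genes are, from each list, genes among the up to 4 with the smallest limma p in all reads and the up to 4 with the highest mean conversion rate, the 5 genes most like the mean profile by Pearson correlation, and HMGN1. The markers of other blood cells at 0 in every library were named for that value. Not all genes under this rule are reported here.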

Additional observations from a re-analysis of the deposited data

How the results depend on the processing

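In each of the 12 combinations of measure and comparison 0 of the genes tested passed, and 0 passed under any alternative run (pseudocounts, filters, scalings, only the 2 groups in the fit, edgeR, DESeq2, the row with the lowest mean, and without each library in turn). With the replicate letter as a block (replicate block), 0 passed as well. The letters were not shown to pair the libraries: same-letter correlations of deviations from group means ran from -0.83 to 0.81 over 3800 genes. With 2 mutant libraries the deviations of A and B mirror each other, so that correlations with them cannot decide on pairing. Between induced wild type and vehicle the same-letter values were 0.38 for A, -0.56 for B and 0.81 for C. The median vehicle percentile of the 8 genes, 95.8, was 97.0 among genes with a mean of at least 20 CPM and 93.5 to 96.3 without each vehicle library.

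Directions of values that did not pass were less stable. In all reads 37 of 158 alternative values for induced wild type against vehicle had the other sign, 10 of 158 for mutant against vehicle and 13 of 158 for mutant against induced wild type. In conversion rates it was 6, 3 and 6 of 109 in the same order. Scaling shifted the median of all genes by over 0.1 on the log2 scale: median centring of all reads by -0.14 for induced wild type against vehicle and by 0.14 for mutant against induced wild type, and leaving conversion and new RNA uncentred by 0.14 and 0.25 for induced wild type against vehicle and new RNA by -0.20 for mutant against induced wild type. Counts over all genes depended on the method. In all reads for mutant against vehicle they went from 4 to 72 with DESeq2, in mutant against induced wild type from 4 to 14 with DESeq2, in new RNA for mutant against vehicle from 4 to 73 with no filter, from 2 to 9 for induced wild type against vehicle, and in converted reads for mutant against vehicle from 23 to 149 with the replicate block. In conversion rates they were 0 and reached 2 for induced wild type against vehicle, 10 for mutant against vehicle and 9 for mutant against induced wild type with no filter. Each of these mutant comparisons also fell to 0 in some alternative. The 2 mutant libraries limit every comparison with that group, and FOS, with 6 to 41 reads, and EGR1, with 1 to 12, are limited by depth.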

Other observations

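By their median rate the long-lived housekeeping mRNAs give the opposite end of the scale, and they were not part of the comparisons above. Of 25 tested in all reads, 0 passed in any comparison, and 5 were at an unadjusted p under 0.05 for mutant against vehicle, beside 3.75% of all genes. The median was -0.28 for mutant against vehicle, -0.16 for mutant against induced wild type and -0.14 for induced wild type against vehicle, beside -0.04, -0.12 and 0.09 over all genes. The genes with the smallest p were glycolytic: PKM2 averaged 846 CPM in mutant and 1186 CPM in induced wild type libraries, against 1307 CPM with vehicle (mutant against vehicle -0.63, SE 0.18, unadjusted p = 0.00578). TPI1 averaged 338 CPM in mutant and 469.6 CPM in induced wild type libraries, against 550.0 CPM with vehicle (mutant against vehicle -0.71, SE 0.24), and ENO1 1021 CPM in mutant and 1341 CPM in induced wild type libraries, against 1546 CPM with vehicle (-0.60, SE 0.21). PGK1 averaged 391 CPM in mutant and 540.4 CPM in induced wild type libraries, against 499.6 CPM with vehicle (mutant against induced wild type -0.47, unadjusted p = 0.00825).

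Among precursor B-cell markers 0 of 15 passed in all reads, and CD9 had the smallest p, averaging 182 CPM in mutant and 227 CPM in induced wild type libraries, against 273 CPM with vehicle (mutant against vehicle -0.58, SE 0.16, unadjusted p = 0.0040). Of their converted reads 1 of 13 genes tested passed, higher in mutant than with vehicle, beside 23 of 5738 genes (0.401%), of which 22 were higher, and this total ran from 0 to 149 over the alternatives. Among stress genes HSPA8, a constitutive HSP70 chaperone, averaged 689.9 CPM in mutant and 496 CPM in induced wild type libraries, against 488 CPM with vehicle, and TXNIP 14.1 CPM in mutant and 27.6 CPM in induced wild type libraries, against 25.6 CPM with vehicle, with 0 of 9 genes of the list passing by limma and 1 at an unadjusted p under 0.05 for mutant against vehicle.

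The rates of FOS in mutant libraries differed more than those of any other of the 10 genes within a group of 2: 1.41% in mutant A from 6 reads and 10.5% in mutant B from 9 reads.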
